A study of Mus musculus with 46 samples.

Results

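5 native candidate cis-regulatory elements (cCREs) of the mouse Klf2 locus, named E006, E027, E030, E046 and E095, were measured beside 15 shuffled sequences made from them, 3 for each. They were chosen by name: every insert named as shuffled in the Downstream assay was taken, together with the native cCRE of the same number. These 20 inserts are part of 127 inserts in that assay, which also held 79 other cCREs, 5 random sequences and 23 promoter fragments. They account for 406 of its 2364 measured constructs, 109 native and 297 shuffled.

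The Downstream assay is a massively parallel reporter assay in which the insert lies behind a barcoded reporter gene driven by 1 of 10 promoters of the same locus, or by no promoter (the vector named NoP). All inserts were read in the same 3 cDNA samples, which are the biological replicates, of 46 samples in the series. In each replicate, cells of 1 mouse embryonic stem cell line, E14TG2a, kept in 2i+LIF medium, were nucleofected with the pooled plasmids and harvested after 24 h. There was no other treatment, and the groups compared are inserts within the same cultures. Activity is the ratio, as the authors deposited it on a linear scale, of a construct's barcodes in reporter RNA to those in plasmid DNA. The plasmids are transient and outside the chromosomes, and the replicates received the same plasmid pool, so the replicate error does not cover the variation from 1 barcoded plasmid to the next.

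cCREs are DNA stretches whose chromatin features mark them as possible enhancers or silencers. Enhancers bind transcription factors and raise transcription from a promoter at a distance, in either orientation, whereas silencers lower it. Shuffling puts the bases of a sequence in another order, which breaks up the short words that transcription factors read. How the shuffled versions were made, and which features of base composition they keep, is not given in the sources used here. Klf2, the gene for which the locus is named, encodes a zinc finger transcription factor of the pluripotency network in mouse embryonic stem cells.

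All 5 natives lie on mouse chromosome 8, with start and end 450 bp apart in the deposited table (build mm10, per the submitters' processing notes). E006 spans chr8:71900631-71901081 and overlaps no gene of the RefSeq GRCm38.p6 table, with Zfp882 as the nearest protein-coding gene at 7525 bp. E027 (chr8:72105226-72105676) also overlaps no gene and lies 1364 bp from Olfr374, an olfactory receptor gene. E030 (chr8:72125819-72126269) overlaps the gene Gm39196 and lies 9019 bp from Tpm4, which encodes a tropomyosin. E046 (chr8:72271221-72271671) overlaps no gene and is 13835 bp from Ap1m1, which encodes a clathrin adaptor subunit. E095 (chr8:72664782-72665232) lies in Nwd1, and whether its bases are exonic or intronic was not determined.

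Sequences of 3 of the promoters that drove the reporter were taken from the RefSeq promoter table (GRCm38.p6). The promoters of Zfp882 (P001) and Smim7 (P022) are shown because they were the weakest and the strongest of the 10 on their own, and that of Klf2 (P016) because the locus is named for it. Each line gives bases upstream of the annotated gene start, 5′ to 3′ on the strand of the gene. Capitals mark matches on either strand to AAGGTCA (Esrrb), ATGCAAAT (Pou5f1), ACAAAG (Sox2), CCACCC (Klf), TGACTCA (AP-1), CACGTG (E box), CCAAT (the CCAAT box, read by NF-Y) or TATAA (the TATA box); none of the marked matches overlap.
P001, Zfp882, chr8:71908356-71908605, plus strand: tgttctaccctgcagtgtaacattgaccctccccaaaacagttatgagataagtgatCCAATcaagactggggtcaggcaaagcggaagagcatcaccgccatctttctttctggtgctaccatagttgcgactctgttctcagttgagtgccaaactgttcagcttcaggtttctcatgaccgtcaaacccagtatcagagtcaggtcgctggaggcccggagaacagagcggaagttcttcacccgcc
P016, Klf2, chr8:72318812-72319061, plus strand: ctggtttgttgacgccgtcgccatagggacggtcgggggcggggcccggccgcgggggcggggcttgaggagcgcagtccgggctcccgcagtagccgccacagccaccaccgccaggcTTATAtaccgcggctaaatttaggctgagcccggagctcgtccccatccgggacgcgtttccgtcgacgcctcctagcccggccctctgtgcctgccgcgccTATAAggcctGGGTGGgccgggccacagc
P022, Smim7, chr8:72571049-72571294, minus strand: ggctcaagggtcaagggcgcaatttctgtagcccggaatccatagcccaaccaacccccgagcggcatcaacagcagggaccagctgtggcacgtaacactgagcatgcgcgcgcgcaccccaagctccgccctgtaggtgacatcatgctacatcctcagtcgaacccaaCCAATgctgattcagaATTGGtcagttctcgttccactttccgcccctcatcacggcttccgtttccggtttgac

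P001 held 1 match to the CCAAT box and P022 held 2. P016 held 2 matches to the TATA box word and 1 to the Klf word. Of 32851 RefSeq promoter windows of 250 bases, 33.8% held at least 1 CCAAT box, 22.8% at least 1 TATA box word and 28.1% at least 1 Klf word. The CCAAT box and TATA box were added to the search after these sequences had been read. Their matches here therefore cannot be weighed against those shares. The GC content was 50.8% in P001, 71.2% in P016 and 57.7% in P022. The matches are a description of these windows and do not show binding.

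Activity without an insert differed widely between the promoters. P001 gave 0.299, 0.368 and 0.394 in replicates 1 to 3, and P022 gave 4.09, 3.97 and 4.37. The vector without promoter gave 0.102, 0.194 and 0.155. The other promoter fragments overlapped Rab8a (P009), Fam32a (P013), Ap1m1 (P014), Eps15l1 (P017), Calr3 and 1700030K09Rik (P018), Cherp (P019) and Med26 (P021).

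The measurements were tight between replicates, with r of 0.975 to 0.987 over the 406 constructs. The median SD of log2 activity over the 3 replicates was 0.14 for natives and 0.16 for shuffled inserts with a promoter, and 0.37 and 0.38 without one. Natives were found in 109 of 110 possible combinations of vector and strand, the missing one being E030 on the minus strand with P014. Shuffled versions were found in 297 of 330, and the gap was mostly at P001, with 6 of 30 possible constructs, and at P021, with 23. All 109 native constructs came from cCRE sublibraries and all 297 shuffled ones from control sublibraries, so sublibrary and kind of insert cannot be told apart in any comparison of natives with shuffled versions.

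Each native was compared with its own shuffled versions on the same promoter and strand. The baseline was the mean of log2 activity over the versions present, and 83 of 95 comparisons with a promoter had all 3 versions, 4 had 2 and 8 had 1. Natives were higher in 48 of these 95 comparisons and lower in 19 (limma on log2 activity, Benjamini-Hochberg adjusted p under 0.05). When every cCRE of the assay was set against every shuffled set, 37.0% of 6554 comparisons were higher and 20.6% lower. By position, the native mean lay above all of its versions in 43 of the 95 comparisons, within their range in 36 and below it in 16. The corresponding shares over all cCREs were 37.8% above and 16.2% below. All replicates of the native lay above all replicates of every version in 34 comparisons and below them in 11, against 23.1% and 7.37% over all cCREs. The natives did not act alike, and 14 of the 19 lower calls came from E030.

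E006 exceeded its shuffled versions with each of the 10 promoters on at least 1 strand. It was higher in 19 of 20 comparisons and lower in 1. The mean difference over promoters and strands was 1.10, 0.91 and 1.05 on the log2 scale in replicates 1 to 3, which gives 1.02 ± 0.05 (SE, limma) or 2.03-fold, with an adjusted p of 2.18e-08. Over all cCREs and shuffled sets, 51.7% of 420 such means were called higher and 29.0% lower. When each cCRE was set against the shuffled versions of E006, 81 of the 83 others had a lower mean difference than E006. Each such mean covers the promoters and strands measured for that cCRE, so the combinations are not always the same. The SE and p of a native's mean rest on its replicates and leave out the spread over promoters, strands and shuffled sequences. The SD of the log2 difference over comparisons was 0.55 for E006, 0.39 for E027, 0.55 for E030, 0.44 for E046 and 0.43 for E095.

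The widest gap of E006 was with P021, the Med26 promoter, on the plus strand. The native gave 3.87, 3.45 and 3.91, and the mean of its shuffled versions 1.10, 1.09 and 1.28. The native replicates lay above every replicate of the 3 versions, and the log2 difference was 1.69 ± 0.12 (adjusted p = 1.82e-05). It was 1.07 against all shuffled versions measured with that promoter and strand, which were not all 15. The only lower call was with P014, the Ap1m1 promoter, on the minus strand, where the native gave 1.92, 1.67 and 1.61 and the shuffled mean was 3.81, 3.52 and 3.34. Here the versions themselves spanned 1.71 to 7.70 and the native lay within them, with a log2 difference of -1.04 ± 0.12 (adjusted p = 1.71e-04). With all 15 shuffled versions as the baseline the same comparison turned to 0.33, and with the random sequences to 0.39.

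The 3 versions of E006 each lay below it on average. The mean log2 difference of the native was 1.09 ± 0.13 (SD of 3 replicates) from E6-shuffled1, 1.07 ± 0.13 from E6-shuffled2 and 0.85 ± 0.05 from E6-shuffled3. E006 had the higher mean in all 19 combinations shared with E6-shuffled2, in 14 of 16 with E6-shuffled1 and in 16 of 19 with E6-shuffled3.

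E046 was higher than its shuffled versions in 12 of 20 comparisons and lower in 1 (16 and 1 with the replicate number as a block). Its mean log2 difference was 0.61, 0.45 and 0.42 in the replicates, or 0.50 ± 0.05 (1.41-fold, limma adjusted p = 2.16e-06). The size of this difference depended on the baseline. It rose to 0.81 (19 higher and 0 lower of 20) against all shuffled versions measured with the same promoter and strand. Against the random sequences it was 0.90. It was 0.33 when medians over promoters and strands were taken separately for native and shuffled levels. The median of the 20 log2 differences themselves was 0.50. Set against the shuffled versions of E046, 79 of the other 83 cCREs had a lower mean difference than E046. The mean distances of the E046 versions were uneven: the native was 0.90 ± 0.14 above E46-shuffled1, 0.29 ± 0.07 above E46-shuffled3 and 0.15 ± 0.06 above E46-shuffled2 on the log2 scale (SD of 3 replicates). The medians over combinations were closer, at 0.78, 0.65 and 0.56. E46-shuffled3 and E46-shuffled2 each had 4 constructs more than 1 log2 unit above their own median on the same strand.

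The highest difference of E046 from its shuffled versions was with P001, the Zfp882 promoter, on the plus strand. Only 1 shuffled version was measured there. The native gave 0.370, 0.403 and 0.458 and that version 0.105, 0.162 and 0.204. These replicates did not overlap, and the log2 difference was 1.43 ± 0.23 (limma adjusted p = 8.51e-04). The lowest was with P014 on the minus strand, with 1.62, 1.39 and 1.28 for the native and 2.21, 2.03 and 1.87 for the shuffled mean. The native lay within the range of its versions, 1.06 to 3.46, and the difference of -0.51 ± 0.13 (adjusted p = 0.0092) missed the threshold without replicate 2 (adjusted p = 0.0794) or replicate 3 (adjusted p = 0.0505). It turned to 0.06 against all shuffled versions and to 0.11 against the random sequences.

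E095 was higher than its shuffled versions in 13 of 20 comparisons and lower in 1 (17 and 1 with the replicate block). The mean log2 difference was 0.58, 0.47 and 0.57 in the replicates, or 0.54 ± 0.05 (1.46-fold, limma adjusted p = 9.75e-07). Against all shuffled versions measured with the same promoter and strand it was 0.24, with 6 of 20 comparisons higher and 1 lower. Against the random sequences it was 0.34, with 11 higher and 1 lower. Set against the shuffled versions of E095, 52 of 83 other cCREs had a lower mean difference than E095 itself. Of these 83, 79.5% had a mean difference called higher against that set (limma), so a higher call was common there. The shares called higher were 56.6% against the set of E006, 54.2% for E030, 42.2% for E027 and 24.1% for E046. The versions of E095 had the lowest mean log2 activity of the 5 sets at -0.50. The means were -0.25 for those of E006, 0.02 for E030, 0.08 for E027 and 0.11 for E046. Each of these means covers the promoters and strands of its own native's comparisons.

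With P001 on the plus strand, E095 gave 0.264, 0.280 and 0.348 and its single measured version 0.117, 0.129 and 0.117. The replicates did not overlap and the log2 difference of 1.29 ± 0.13 was the highest of E095 (limma adjusted p = 1.06e-04); against the random sequences it was 0.81. The lowest was with P017, the Eps15l1 promoter, on the plus strand, where the native gave 1.49, 1.49 and 1.38 and the shuffled mean was 2.04, 2.22 and 1.79. The native lay within its versions, which spanned 0.718 to 3.88, and the difference of -0.47 ± 0.12 passed the threshold with all replicates but missed it without replicate 2 (adjusted p = 0.0975). It also missed it against all shuffled versions, at -0.27 (adjusted p = 0.0784), and against the random sequences, at -0.0986 (adjusted p = 0.449), while it was -1.003 with the median over versions and -0.79 with their linear mean.

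E027 was close to its shuffled versions in most combinations. It lay within their range in 13 of 18 comparisons, was higher in 4 and lower in 2. With the replicate number as a block these counts were 10 and 4, and without replicate 2 they were 3 and 0. The mean log2 difference was 0.21, 0.11 and 0.17 in the replicates, or 0.16 ± 0.04 (95% interval 0.07 to 0.26; 1.12-fold, limma adjusted p = 0.0053). It missed the threshold without replicate 3 (adjusted p = 0.066) and with the versions averaged on the linear scale, where it fell to 0.0047 (adjusted p = 0.925). With the median over versions as the baseline it rose to 0.32.

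The versions of E027 differed in their distance from it, and for E27-shuffled3 the mean and the median had opposite signs. The native was 0.41 ± 0.08 above E27-shuffled1 and 0.22 ± 0.05 above E27-shuffled2, and at -0.17 ± 0.06 relative to E27-shuffled3 (log2 means, SD of 3 replicates). The medians over combinations were 0.46, 0.31 and 0.19, and the native was higher in 15 of 18, 13 of 18 and 9 of 16 combinations. With P009, the Rab8a promoter, on the plus strand, E027 gave 1.11, 1.05 and 0.943 and the shuffled mean 0.552, 0.524 and 0.523. There the native replicates were all above those of its versions, with a log2 difference of 0.96 ± 0.11 (limma adjusted p = 1.90e-04). With P021 on the plus strand the native gave 2.42, 2.23 and 2.39 and the mean of its 2 measured versions 3.31, 3.58 and 3.36. The native lay between these versions, which were at 1.30 and 8.98, so the difference of -0.54 ± 0.11 (adjusted p = 0.0026, and 0.0579 without replicate 2) sets it against 1 low and 1 high version. It turned to 0.39 against all shuffled versions and to 0.54 against the random sequences, and was -1.13 with the versions averaged on the linear scale.

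E030 went the other way and lay below its own shuffled versions. It was lower in 14 of 17 comparisons and higher in 0 (limma, also 0 at an unadjusted p under 0.05). With the replicate block these counts were 16 and 0. The mean of E030 lay below all of its versions in 16 of 17. In 11 of 17 every native replicate lay below every replicate of each version. The mean log2 difference was -0.831, -0.843 and -0.997 in the replicates, or -0.89 ± 0.05 (shuffled 1.85-fold above native, limma adjusted p = 6.75e-08). Set against the shuffled versions of E030, 1 of the other 83 cCREs of the assay had a lower mean difference than E030. The 3 versions gave like differences, with the native at -0.80 ± 0.09, -0.86 ± 0.08 and -1.01 ± 0.12 relative to E30-shuffled1, E30-shuffled2 and E30-shuffled3 (log2, SD of 3 replicates).

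The widest gap of E030 was with P017 on the plus strand. The native gave 0.748, 0.746 and 0.609, and the shuffled mean was 2.85, 2.93 and 2.51. All native replicates were below all version replicates, and the log2 difference was -1.98 ± 0.13 (shuffled 3.95-fold higher, limma adjusted p = 1.38e-05). It was -1.33 against all shuffled versions and -1.15 against the random sequences. The 1 combination in which E030 was not below its versions was P018, a fragment overlapping Calr3, on the plus strand. There it gave 0.824, 0.768 and 0.832 against 0.698, 0.733 and 0.826, and these replicates overlapped. The log2 difference of 0.11 had a 95% interval of -0.16 to 0.37 (adjusted p = 0.4512), and it was -0.22 against all shuffled versions and -0.03 against the random sequences.

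The same constructs were then set against the promoter without an insert. Shuffled inserts were lower than the promoter alone in 160 of 268 constructs and higher in 39, with a median log2 difference of -0.51. Over all 2145 constructs with a promoter, 43.3% were lower and 12.0% higher. Random sequences were lower in 55 of 93 and higher in 10, with a median of -0.68. The other cCREs were lower in 523 of 1265 and higher in 111, with a median of -0.27. The 5 natives were lower in 30 of 99 and higher in 26 with a median of -0.10, counts that fell to 19 lower and 15 higher without replicate 2 and to 16 higher without replicate 3.

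The natives divided by this measure too. E006 was higher than the promoter alone in 16 of 20 constructs and lower in none, with a median log2 difference of 0.52. E046 was higher in 9 of 20 and lower in none (median 0.29), and in 16 with the replicate block. E030 was lower in all 19 of its constructs, with a median of -1.31 and a range from -2.00 to -0.69. E027 was lower in 5 of 20 and higher in none (median -0.19), and E095 was lower in 6 and higher in 1 (median -0.25); with the replicate block the lower calls were 11 and 13. Thus E095 lay above its shuffled versions while its median was below the promoter alone. The counts of 0, for E006 and E046 lower and for E027 and E030 higher (limma), were also 0 at an unadjusted p under 0.05. The shuffled versions had medians below 0 for each native, from -0.26 for those of E046 to -0.72 for those of E095.

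With the Klf2 promoter, P016, the fit had wider errors than with most promoters, and 5 of 10 comparisons passed. E006 was higher than its shuffled versions on both strands, by 1.23 ± 0.23 on the plus and 0.77 ± 0.22 on the minus strand (log2; limma adjusted p = 0.0022 and 0.0163). E095 was higher by 0.97 ± 0.26 on the plus strand (adjusted p = 0.0111), and E046 by 0.52 ± 0.19 on the plus strand (adjusted p = 0.0416). E030 was at -1.09 ± 0.27 on the minus strand (adjusted p = 0.0076). The other 5 combinations, including both of E027, did not pass, and 4 of them passed with the replicate block.

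Across promoters, the median log2 difference of natives from shuffled versions ran from 0.05 with P014 to 1.25 with P001. At P001 natives were higher in 5 of 6 comparisons, of which none concerned E030 or E027. Each of these 6 rested on a single shuffled version. At P014 they were higher in 4 and lower in 3 of 9, and at P017 higher in 3 and lower in 3 of 10. At P009, P018 and P021 they were higher in 6 of 10 and lower in 2, 1 and 3. Over all cCREs, shuffled sets and promoters together, 37.0% of comparisons were higher and 20.6% lower. The order of the promoters was not tested.

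In the vector without promoter, natives were higher than their shuffled versions in 6 of 10 comparisons and lower in 1. Over all cCREs 42.8% of 685 comparisons were higher and 12.7% lower. The native mean lay above all of its versions in 4 of the 10 comparisons, within them in 5 and below them in 1, next to 31.8% above and 9.20% below over all cCREs. Against the empty vector, E046 and E006 were higher on both strands and E030 lower on both, while E027 and E095 passed on neither (limma). With the replicate block E027 and E095 were each higher on 1 strand. Over all 219 constructs without promoter 16.0% were higher and 24.2% lower. E046 was the most active native here, with 0.467, 0.621 and 0.522 on the plus strand and 0.316, 0.477 and 0.389 on the minus strand, all above the empty vector's replicates. On the plus strand 1 of its versions, E46-shuffled2, gave 0.454, 0.720 and 0.460, which overlaps the native, while E46-shuffled3 gave 0.054, 0.085 and 0.102. E006 gave 0.194, 0.324 and 0.304 on the plus strand, and E6-shuffled2 was above it at 0.430, 0.282 and 0.399, with replicates that overlap.

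E030 gave 0.038, 0.062 and 0.046 on the minus strand of this vector, below all 3 replicates of the empty vector. Its shuffled versions there had means from 0.056 to 0.201, and the log2 difference was -1.17 ± 0.24 (limma adjusted p = 0.0030); this call was lost without replicate 3. On the plus strand E030 was at -0.04 ± 0.16 relative to its versions (adjusted p = 0.8409). E095 exceeded its versions on both strands, by 1.49 ± 0.22 and 0.77 ± 0.20 on the log2 scale (adjusted p = 6.40e-04 and 0.0108), while E027 passed on neither; with the replicate block it was higher on the plus strand (log2 difference 0.50, adjusted p = 0.0021), which makes 7 higher calls of 10.

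Whether the difference from shuffled versions was larger without a promoter than with one was tested directly, in a comparison added after the values had been seen. The difference was larger without a promoter by 0.99 ± 0.14 on the log2 scale for E046 (limma adjusted p = 4.36e-04) and by 0.59 ± 0.12 for E095 (adjusted p = 0.0026). For E006 it was larger by 0.55 ± 0.17 (adjusted p = 0.0236), which did not pass without replicate 2 (adjusted p = 0.225) or replicate 3 (adjusted p = 0.15). For E030 the change was 0.29 ± 0.13 (95% interval -0.02 to 0.59) and for E027 0.04 ± 0.14 (-0.28 to 0.37). Over all cCREs and shuffled sets 57.4% of 380 such comparisons were called.

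The strand of the insert was compared next, over pairs of constructs that share insert and promoter. Of 49 pairs of native constructs 7 differed with a promoter (limma), with a median absolute log2 difference of 0.18 and a largest of 0.74. Of 131 pairs of shuffled constructs 68 differed, with a median of 0.48 and a largest of 3.86. Over all inserts 39.9% of 982 pairs differed. The native count was 1 without replicate 2 and 3 without replicate 3. With the replicate block 36 of 49 native, 100 of 131 shuffled and 775 of all 982 pairs differed. The native share was then close to the others. The most uneven native was E030 with P016, higher on the plus strand by 0.74 ± 0.26 (limma adjusted p = 0.0564), which did not pass. Those that passed were E095 with P014, P021 and P022, E046 with P018 and P019, E030 with P018 and E027 with P021. E095 with P014 had the widest of these differences, 0.73 ± 0.12 (adjusted p = 0.0024), and E095 with P022 was the 1 pair that was higher on the minus strand.

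The strand also moved the difference between natives and shuffled versions, in a second comparison added after the values had been seen. For E006 the mean log2 difference was 1.27 on the plus and 0.77 on the minus strand, a change of 0.50 ± 0.07 (limma adjusted p = 2.01e-09). For E046 it was 0.65 and 0.34, and for E030 -0.73 and -1.03. E027 went the opposite way, with -0.02 on the plus and 0.35 on the minus strand, a change of -0.37 ± 0.07 (adjusted p = 1.74e-06). E095 changed by 0.15 ± 0.07 (adjusted p = 0.0477), which missed the threshold without replicate 1 (adjusted p = 0.141) or replicate 3 (adjusted p = 0.216). Of all 360 such comparisons 72.5% were called. Such a change can lie in the native, in its versions or in both. The native E006 itself differed between plus and minus strand by -0.20 (P013) to 0.21 (P022) on the log2 scale, and none of its pairs passed. The native E027 differed by -0.23 (P016) to 0.33 (P021).

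The shuffled versions were also set against each other. With a promoter, 139 of 256 pairs of versions of the same native differed, with a median absolute log2 difference of 0.47, and 920 of 1537 pairs from different natives differed, with a median of 0.54. Together 59.1% of pairs differed. By native, 26 of 54 pairs differed for E030, 24 of 48 for E095, 28 of 50 for E006, 31 of 54 for E046 and 30 of 50 for E027. Without a promoter 20 of 28 pairs of the same native differed, against 62.8% over all pairs. So a native's difference from the shuffled mean often included versions that differed from each other.

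Single shuffled constructs stood far above the other constructs of the same insert and strand. Each construct's log2 distance from the median of its own insert on the same strand was taken after the promoter's level was removed. Distances past 1, a limit set after the values had been seen, were counted. This was the case for 31 of 268 shuffled constructs and 13 of 93 random ones, all of them upward. It was the case for 0 of 99 native constructs, 10 of 1265 constructs of other cCREs and 2 of 420 constructs of promoter inserts. The SD of the distances was 0.63 for shuffled and 0.22 for native inserts.

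These far constructs were reproducible between replicates, with a median SD of log2 activity of 0.16 over the 3 replicates and a range from 0.05 to 0.52. They came from 13 of the 15 versions and 9 of the 10 promoters, with 8 at P017, and the same insert on the other strand was also far in 6 of 31 cases. E6-shuffled1 with P014 on the minus strand gave 8.11, 7.26 and 7.75, which was 7.73-fold above that insert's own median on that strand. E27-shuffled1 with P021 on the plus strand gave 8.39, 10.1 and 8.53 (5.64-fold), and E46-shuffled3 with P019 on the plus strand gave 1.86, 1.91 and 1.72 (5.00-fold). These 3 were named for their size after the values had been seen, and the first 2 lie in the comparisons in which E006 and E027 had their lowest differences. Shuffled and random inserts both came from control sublibraries, and the number of barcoded plasmids behind each construct was not analysed; the part of either in these values was not tested.

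The same 5 natives, but not their shuffled versions, were also compared with the promoter alone in the Upstream assay of the series, in which the native stands before the promoter. That assay was normalised separately, so its values are set beside the Downstream ones without a test. There E006 on the plus strand had a mean log2 difference of 0.34 ± 0.13 (SD of 3 replicates), higher than the promoter alone in 36 of 44 combinations. E046 was at 0.38 ± 0.25 on the plus strand, higher in 20 of 30, and at 0.41 ± 0.21 on the minus strand, higher in 21 of 29. E030 on the plus strand was at -1.02 ± 0.24, higher in 5 of 43. E027 and E095 on the plus strand were at -0.34 ± 0.12 and -0.36 ± 0.12, higher in 5 of 44 and 4 of 40. In both positions E006 and E046 had means or medians above the promoter alone and E030 had the lowest of the 5. The Upstream values cover larger sets of combinations, for E006 44 on the plus strand against 20 over both strands Downstream. The order differed for the native measured alone. Upstream, E030 alone gave 0.805, 0.415 and 0.753 on the minus strand, above the other natives in replicates 1 and 3. In replicate 2 E046 on the plus strand was higher, at 0.472. In the Downstream vector without promoter E030 gave 0.038, 0.062 and 0.046 on the minus strand.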

How the data were processed

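All tests used the 3 Downstream cDNA samples, grouped by title. For each replicate the authors deposited an activity, the ratio of barcodes in cDNA to those in pDNA, with 2 pDNA and 22 iPCR libraries behind it. They also deposited a boost index on the log2 scale, per the file headers and values, which was recomputed for 2364 of 2364 constructs within a tolerance of 0.001 and used only as a check. Per the submitters' processing notes, Bowtie2 and mm10 were used; barcode filters are not given in the sources used here. Barcode and read numbers were not analysed, so depth is unknown and no counting interval is given. No Downstream activity was 0. The Upstream values of the natives came from 3 other cDNA samples, titled Klf2_Nanog_NC_Upstream, of which the Klf2 rows were used. There 2 combinations of E027 on the minus strand were left out for an activity of 0.

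limma 3.58.1 (R 4.3.3; Python 3.11.15, numpy 2.4.6, pandas 2.3.3) was fitted on log2 activity, 3 values against 3, with Benjamini-Hochberg adjustment at 0.05 over every cCRE against every shuffled set (7239 rows with and without promoter). Other families were fitted likewise on all inserts. On simulated data with a log2 change of 1, the comparison of natives with shuffled sets recovered 79.0% of 200 changed rows with 4.24% false among those called. The comparison with the promoter alone recovered 89.0%, with 8.25% false. The simulated noise was drawn independently for both sides, and fewer rows were changed than were called in the data. The rates on the real values may therefore differ. Same-numbered replicates of natives and shuffled sets deviated together (correlations 0.813, 0.737 and 0.697 over 105 comparisons), so the numbers pair the values. A fit with the replicate number as a block is given beside each native's counts against its shuffled versions where they differ. Other results of the natives carry it where it moves a count by over 1.5 times. Every native was named, with its highest and lowest combination in full. The planned motif search of the natives is not reported here; 3 promoter windows were searched instead. Members, lists and tests were chosen with earlier results of these data known. Alternatives were other baselines, a pseudocount of 0.01, a minimum activity of 0.05, both strands averaged, medians, a variance trend, the block and leaving out each replicate.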

Additional observations from a re-analysis of the deposited data

Results flagged for a closer look

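In 3 natives the difference from shuffled versions was larger in the vector without promoter than with the 10 promoters, by 0.55 on the log2 scale for E006, 0.99 for E046 and 0.59 for E095 (limma, test of the difference itself). The E006 call was lost without replicate 2 or replicate 3, and 57.4% of all 380 such comparisons were called. All 5 natives had a difference from shuffled versions that changed between the plus and the minus strand, by 0.50 for E006, 0.30 for E030, 0.31 for E046 and 0.15 for E095, and by -0.37 for E027. The E095 call was lost without replicate 1 or replicate 3, and 72.5% of all 360 such comparisons were called. Such a change can lie in the native, in its versions or in both.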

How the results depend on the processing

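With the replicate number as a block, natives were higher than their shuffled versions in 62 and lower in 23 of the comparisons with promoters. Their strand calls rose from 7 to 36, and those over all inserts from 392 to 775 of 982. Higher calls without promoter rose from 6 to 7, calls between versions of a native from 139 to 180 and shuffled constructs lower than the promoter alone from 160 to 199. The block ended none of the calls of natives against their own shuffled versions. Leaving out 1 replicate in turn gave 38 to 50 higher and 13 to 21 lower calls with promoters, and 4 to 7 higher and 0 to 1 lower without. It gave 19 to 31 native constructs lower and 15 to 25 higher than the promoter alone, and 1 to 9 strand calls. The E027 mean was 0.14 to 0.19, the change between vectors -0.0492 to 0.17 for E027 (negative without replicate 1) and 0.41 to 0.79 for E006, and the change between strands 0.13 to 0.17 for E095. Averaging both strands, which leaves fewer comparisons, gave 25 higher and 7 lower with promoters and 3 higher without. Lower calls without promoter were 2 with random sequences as the baseline and 2 with a minimum activity of 0.05. The E027 mean was 0.0047 with versions averaged linearly. It was 0.19 with medians over promoters and strands taken separately for native and shuffled levels (adjusted p = 0.0541, limma).

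All shuffled versions and the random sequences, used as baselines, turned 4 single combinations: E006 with P014, minus strand (0.33 and 0.39), E027 with P021, plus strand (0.39 and 0.54), E030 with P018, plus strand (-0.22 and -0.0299) and E046 with P014, minus strand (0.0587 and 0.11). The causes were not tested. Of the recomputed values that answer a comparison, 163 kept their direction and call or, for a count, stayed within 1.5 times, while 12 moved, 7 lost their call and 1 reversed. The number of plasmids per construct, the 1 or 2 versions behind 12 comparisons and the separate sublibraries limit what these differences show.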
